A study of Mus musculus with 6 samples.

Results

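The genes described here are 10 genes that mark fibroblasts or build the extracellular matrix around them: Prrx1, Twist1, Twist2, Thy1, Bgn, Lum, Postn, Fbn1, Fbln2 and Lox. They were taken by name, 10 of the 24421 gene entries in the deposited count table, and all 10 were found. The choice was made with earlier results of these data known. RNA was sequenced from mouse induced pluripotent stem cells (iPSCs), cells reprogrammed to a state like that of embryonic stem cells. The study compared 3 libraries of cells with both copies of the serum response factor gene deleted (SRFΔ/Δ, here SRF KO) with 3 libraries of cells that carry the unrecombined conditional allele (SRFf/f, here WT). Both groups were grown in medium with serum and the labels name no other agent. The labels do not say which cells were reprogrammed, whether feeder cells were present, what deleted the gene, or whether the replicates come from different clones, so the p-values measure only the spread between these libraries.

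Fibroblasts are the connective tissue cells that secrete and remodel collagen-rich matrix. Prrx1, Twist1 and Twist2 encode transcription factors of embryonic mesenchyme, and Thy1 encodes a surface protein (CD90) that fibroblasts carry and that is lost early when they are reprogrammed to pluripotency. The other genes encode secreted proteins: proteoglycans that bind collagen fibrils (Bgn, Lum), fibres and their associated proteins (Fbn1, Fbln2, Postn), and the enzyme that cross-links collagen and elastin (Lox). In fibroblasts SRF, together with actin-regulated cofactors, is known to drive genes of the cytoskeleton and of contraction.

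The libraries held between 26321602 and 36680156 counts. Srf itself, the targeted gene, was at 4.20, 3.17 and 4.53 CPM (each count divided by the TMM-scaled size of its library) in SRF KO replicates 1 to 3 and at 36.6, 29.7 and 37.2 CPM in WT replicates 1 to 3, in the direction of the labels. The first principal component of log2 CPM carried 83.6% of the variance and set the groups apart. WT replicate 2 stood apart on the second, at -16.4 against 6.07 and 11.3 for the other WT libraries. Among the 10 genes its absence moved Twist2, Lum and Postn most, and these are given both ways. All 10 pluripotency markers examined were present in every library. Pou5f1, which encodes the factor OCT4, was between 761 and 784 CPM in SRF KO and between 759 and 859 CPM in WT. At an adjusted p under 0.05 in edgeR, 6 of the 10 markers were lower in SRF KO and 1 was higher. The other 3, Pou5f1 among them, were not called. Nanog was among the lower ones, at 255 to 259 CPM in SRF KO and 441 to 447 CPM in WT.

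All 10 genes were higher in SRF KO than in WT, by 1.76-fold (Postn) to 2.75-fold (Twist2). Each passed an adjusted p of 0.05 in edgeR's quasi-likelihood test over all entries, where 21.2% of the 14778 genes tested were called higher. In each of the 10 the lowest SRF KO library lay above the highest WT library, which held for 26.2% of all genes tested. The median log2 fold change of the 10 genes was 1.16, beside -0.01 over all genes tested, and 8 of the 10 lay above the 95th percentile of all genes, a log2 fold change of 1.05. At a log2 fold change of at least 1, 8 of the 10 were called, beside 5.53% of all genes. The 10 genes had at least 18 counts in every library, so that none entered the test through 1 group alone. Without WT replicate 2 all 10 were again called higher, with a median of 1.16.

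**Figure D1:**
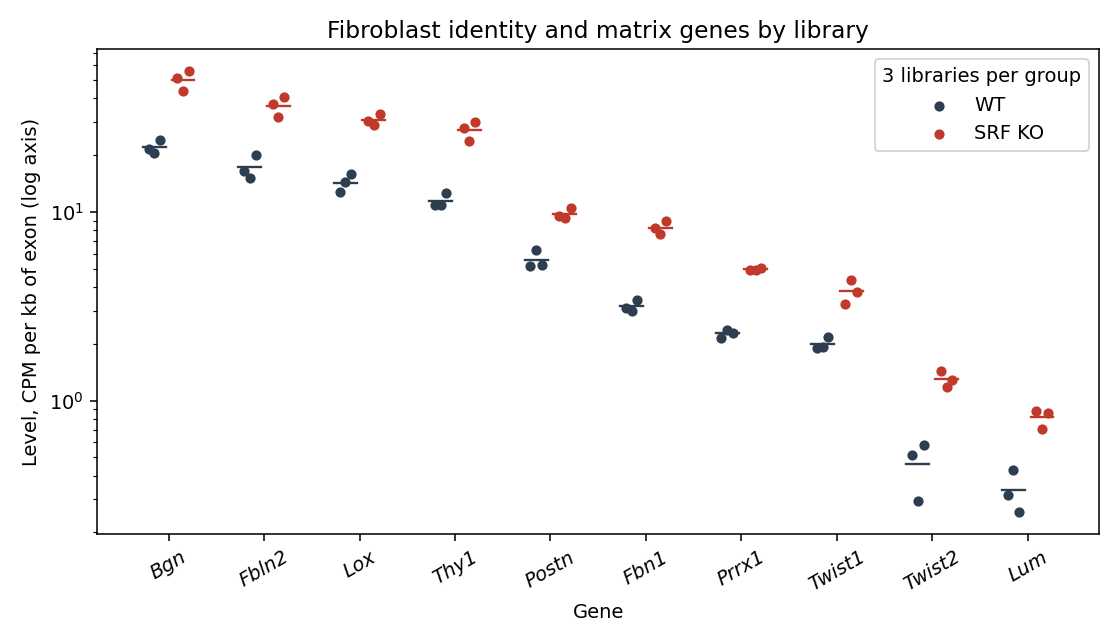
Level of each gene in each library, in CPM per kb of exon on a log axis, with 3 points and a line at the mean for WT (dark) and SRF KO (red). For every gene the 3 SRF KO points lie above the 3 WT points, and the genes span from 0.334 (Lum) to 22.1 CPM per kb (Bgn) in WT.

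Summed over the 10 genes, the level was between 919 and 1115 CPM in SRF KO and between 442 and 507 CPM in WT. This was between 0.0922% and 0.114% of all counts in SRF KO and between 0.0435% and 0.0505% in WT. In bulk RNA, more cells of a type and more RNA per cell cannot be told apart.

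Since the 10 genes moved together, the letters around their transcription starts were examined. RefSeq promoter windows (GRCm38.p6, 250 bases before to 50 after a start) were matched for 7 of the 10 genes, with 8 windows in all because Postn has 2. The CArG box, the sequence that SRF binds, was in 0 of the 8 windows on either strand, and in 1.63% of all 32851 windows. The window of Srf, whose product is known to bind its own promoter, held 2. The E-box CANNTG, the kind of sequence that Twist factors bind with their partners (its reverse complement has the same form), was in 3 of the 8 windows, those of Bgn, Fbn1 and Fbln2, and in 72.3% of all windows. TATAAA was in 2, that of Twist1 and 1 of the 2 of Postn, and in 13.6% of all windows, searched on both strands. A match describes the letters only. The 4 windows with a match before the start are shown here, 5′ to 3′ on the gene's strand (plus in each case), up to the base before the start, with the matched motif in capitals. They show the letters TATAAA near the middle of the stretch of Twist1 and near the end, close to the start, in that of Postn. The other 2 show the E-box letters of a proteoglycan and a fibulin.
Twist1, chr12:33957421-33957670: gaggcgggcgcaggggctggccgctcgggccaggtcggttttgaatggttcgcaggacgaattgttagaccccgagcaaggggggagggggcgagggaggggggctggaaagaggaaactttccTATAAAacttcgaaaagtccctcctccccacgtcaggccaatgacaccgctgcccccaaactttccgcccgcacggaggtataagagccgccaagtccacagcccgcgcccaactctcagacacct
Postn, chr3:54360857-54361106: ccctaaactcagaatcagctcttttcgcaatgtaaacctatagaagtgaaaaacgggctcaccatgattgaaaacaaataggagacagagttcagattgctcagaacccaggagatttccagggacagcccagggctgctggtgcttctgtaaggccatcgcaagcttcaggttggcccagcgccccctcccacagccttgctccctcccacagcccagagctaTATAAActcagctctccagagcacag
Bgn, chrX:73483351-73483600: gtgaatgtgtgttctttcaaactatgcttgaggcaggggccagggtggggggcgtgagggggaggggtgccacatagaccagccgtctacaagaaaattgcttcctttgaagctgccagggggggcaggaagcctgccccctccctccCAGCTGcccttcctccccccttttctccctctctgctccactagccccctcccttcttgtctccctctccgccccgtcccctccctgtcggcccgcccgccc
Fbln2, chr6:91212514-91212763: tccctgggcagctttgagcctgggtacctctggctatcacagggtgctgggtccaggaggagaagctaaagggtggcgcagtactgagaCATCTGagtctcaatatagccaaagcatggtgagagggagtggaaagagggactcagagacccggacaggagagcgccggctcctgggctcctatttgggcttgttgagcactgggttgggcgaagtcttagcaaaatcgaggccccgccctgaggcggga

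The transcription factors were examined first. Prrx1 (chr1:163245119-163313710, minus strand, in GENCODE M21 on GRCm38, as all positions here) encodes a homeodomain protein of limb and facial mesenchyme. It was at 54.4, 54.4 and 55.9 CPM in the SRF KO libraries and at 23.9, 26.1 and 25.3 CPM in the WT libraries. Its libraries were close to each other in both groups, with a log2 change of 1.13 (SE 0.06, adjusted p 5.52e-08 in edgeR). Among the 10 genes Prrx1 and Fbn1 shared the smallest adjusted p.

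Twist1 (chr12:33957671-33959829, plus strand) and Twist2 (chr1:91801461-91848028, plus strand) encode closely related basic helix-loop-helix factors, so that reads may have been shared between them under the unknown counting rule. Twist1 was at 5.31, 7.06 and 6.15 CPM in SRF KO and at 3.09, 3.15 and 3.52 CPM in WT, a log2 change of 0.93 (SE 0.13, adjusted p 0.000185 in edgeR). SRF KO replicate 2 was the highest of its group for Twist1, unlike for the other 9 genes, and the groups did not overlap. Twist2 was at 4.53, 3.74 and 4.08 CPM in SRF KO and at 1.63, 0.933 and 1.85 CPM in WT, a log2 change of 1.46 (SE 0.20, adjusted p 0.000116 in edgeR). Its lowest WT value, in replicate 2, rests on 24 counts, a counting error of 20.4%. Leaving out WT replicate 2 gave 1.26. The exons of Twist2 overlap an antisense gene, Gm29100, and since the use of strand is not given its reads cannot be told apart from those of Twist2.

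Thy1 (chr9:44043384-44048579, plus strand) is the one surface protein among the 10. It was at 83.8, 71.5 and 90.4 CPM in SRF KO and at 32.5, 32.4 and 37.6 CPM in WT. The 3 SRF KO libraries lay above all WT libraries, with a log2 change of 1.26 (SE 0.09, adjusted p 6.96e-07 in edgeR).

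The proteoglycans differed most in level. Biglycan, from Bgn (chrX:73483602-73495933, plus strand), is a small leucine-rich proteoglycan that binds collagen and growth factors. It was at 315, 266 and 339 CPM in SRF KO and at 131, 125 and 148 CPM in WT, a log2 change of 1.19 (SE 0.09, adjusted p 1e-06 in edgeR). Bgn was the most abundant of the 10 genes per kb of exon in both groups. Lumican, from Lum (chr10:97565128-97572703, plus strand), belongs to the same family and spaces collagen fibrils. It was the least abundant, at 2.16, 1.74 and 2.11 CPM in SRF KO and 0.773, 1.05 and 0.627 CPM in WT. These values rest on 18 to 61 counts per library, with counting errors of 23.6% to 12.8%. Even so the groups did not overlap, and the log2 fold change was 1.31 (SE 0.21, adjusted p 0.000455 in edgeR), or 1.50 without WT replicate 2.

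Among the fibre proteins, fibrillin-1, from Fbn1 (chr2:125300594-125507993, minus strand), forms the microfibrils that carry elastin and hold latent growth factors. Fbn1 was at 99.4, 92.2 and 108 CPM in SRF KO and at 37.5, 36.0 and 41.4 CPM in WT, a log2 change of 1.38 (SE 0.07, adjusted p 5.52e-08 in edgeR). An opposite-strand gene, Gm9913, overlaps its exons. Fibulin-2, from Fbln2 (chr6:91212455-91272540, plus strand), binds fibrillin and basement membrane proteins. It was at 237, 204 and 259 CPM in SRF KO and at 106, 96.9 and 128 CPM in WT, a log2 change of 1.08 (SE 0.10, adjusted p 8.05e-06 in edgeR). Fbln2 varied between libraries of a group more than Fbn1 did, with an SD of 28.1 CPM around 233 in SRF KO and of 16.2 CPM around 110 in WT.

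Periostin, from Postn (chr3:54361109-54391037, plus strand), is a secreted protein that ties collagen to other matrix proteins. Postn was at 82.9, 80.4 and 91.2 CPM in SRF KO and at 45.0, 54.4 and 45.7 CPM in WT. It had the smallest fold change of the 10, 0.81 on the log2 scale (SE 0.08, adjusted p 7.55e-06 in edgeR), and without WT replicate 2, its highest WT library, 0.91. Lysyl oxidase, from Lox (chr18:52516067-52529867, minus strand), was at 144, 138 and 159 CPM in SRF KO and at 60.7, 68.5 and 75.5 CPM in WT. All 3 SRF KO libraries were again above all WT libraries, a log2 change of 1.11 (SE 0.08, adjusted p 7.47e-07 in edgeR). Its exons overlap an antisense gene, AC161119.1.

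**Figure D2:**
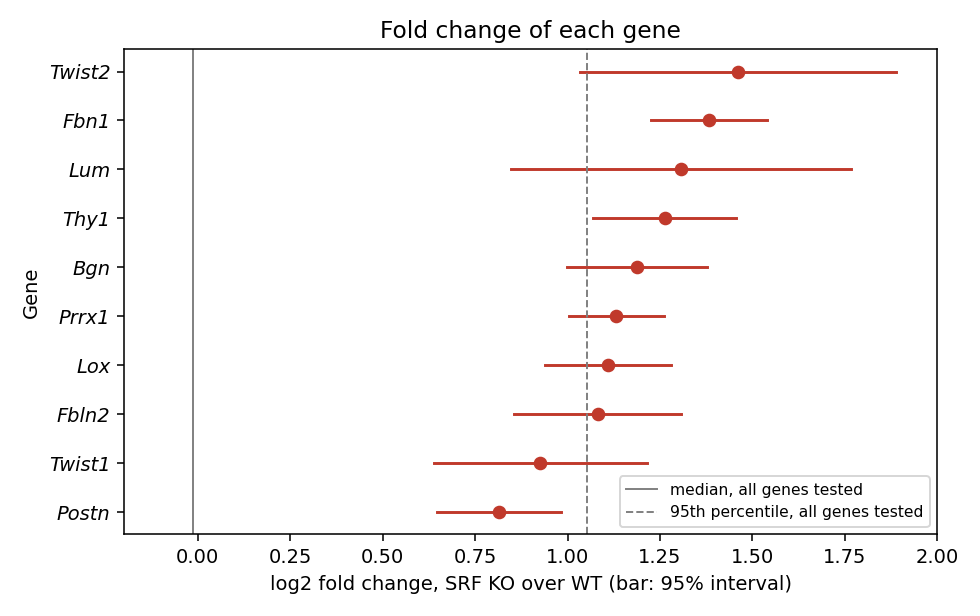
Log2 fold change of each gene (SRF KO over WT) with its 95% interval from the edgeR fit; the grey lines are the median (-0.01) and the 95th percentile (1.05) of all genes tested. All intervals lie above 0, and 8 of the 10 points lie to the right of the 95th percentile.

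The fold changes of the 10 genes lay close to each other. Of the 45 pairs of genes, 39 had overlapping 95% intervals. Postn was in 5 of the other 6 pairs, with its interval of 0.65 to 0.98 below those of Prrx1 (1.005 to 1.26), Twist2 (1.03 to 1.89), Thy1 (1.07 to 1.45), Bgn (0.999 to 1.38) and Fbn1 (1.23 to 1.54). The remaining pair was Twist1, with an interval of 0.64 to 1.21, and Fbn1. Overlapping intervals do not show that changes are equal.

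The make-up of the summed CPM of the 10 genes, which weights long transcripts more, differed little between the groups. Bgn made up 29.99% ± 0.888 of it in SRF KO and 29.0% ± 0.724 in WT, and Fbln2 22.8% ± 0.590 and 23.7% ± 1.76 (SD, n = 3). Prrx1 held 5.41% ± 0.464 and 5.42% ± 0.445, and Lox 14.4% ± 0.541 and 14.7% ± 0.842, differences smaller than the SD of either group. In 3 of the 10 genes the shares of the groups did not overlap, though shares of a single sum are tied to each other. Postn took 8.06% to 8.75% in SRF KO and 9.01% to 12.2% in WT, Fbn1 9.67% to 10.02% against 8.10% to 8.50%, and Thy1 7.78% to 8.15% against 7.29% to 7.41%. With 3 libraries against 3 an exact two-sided permutation test cannot give a p under 0.1, so these shares were not tested.

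Per kb of exon, the order of the 10 genes was the same in both groups: Bgn, Fbln2, Lox, Thy1, Postn, Fbn1, Prrx1, Twist1, Twist2 and Lum. In SRF KO, Bgn was at 50.3 ± 6.06 CPM per kb and Lum at 0.817 ± 0.0936, and in WT at 22.1 ± 1.90 and 0.334 ± 0.0876 (SD, n = 3). In SRF KO the libraries of Fbln2 and Lox overlapped, as did those of Lox and Thy1, so that these neighbours are not ordered beyond their spread. In WT this held for Fbln2 and Lox, for Prrx1 and Twist1 and for Twist2 and Lum. Bgn was above 93.7% of the 14215 tested genes with a known length in SRF KO and above 84.1% in WT, and Lum above 21.5% and 12.4%. The matrix genes Bgn, Fbln2 and Lox thus were among the more abundant transcripts of these cultures in both groups, while Twist2 and Lum were low in both. Twist1 was above 46.6% of them in SRF KO and above 34.7% in WT, near Prrx1 at 52.7% and 36.9%.

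Within the groups, the libraries often lay in the same order from gene to gene. SRF KO replicate 2 was the lowest of its group for 9 of the 10 genes and SRF KO replicate 3 the highest for 7. WT replicate 3 was the highest of its group for 7. Among the 12344 genes with a mean of at least 50 counts these shares were 39.1%, 33.0% and 38.9%. Thy1, Bgn, Fbn1, Fbln2 and Lox, 5 of the 10, showed all 3 positions together, beside 12.4% of those genes. Of 8 collagen genes of fibroblasts, 7 showed them too. Prrx1 departed from its group means by at most 0.07 on the log2 scale, and Twist2 by up to 0.60, in WT replicate 2.

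**Figure D3:**
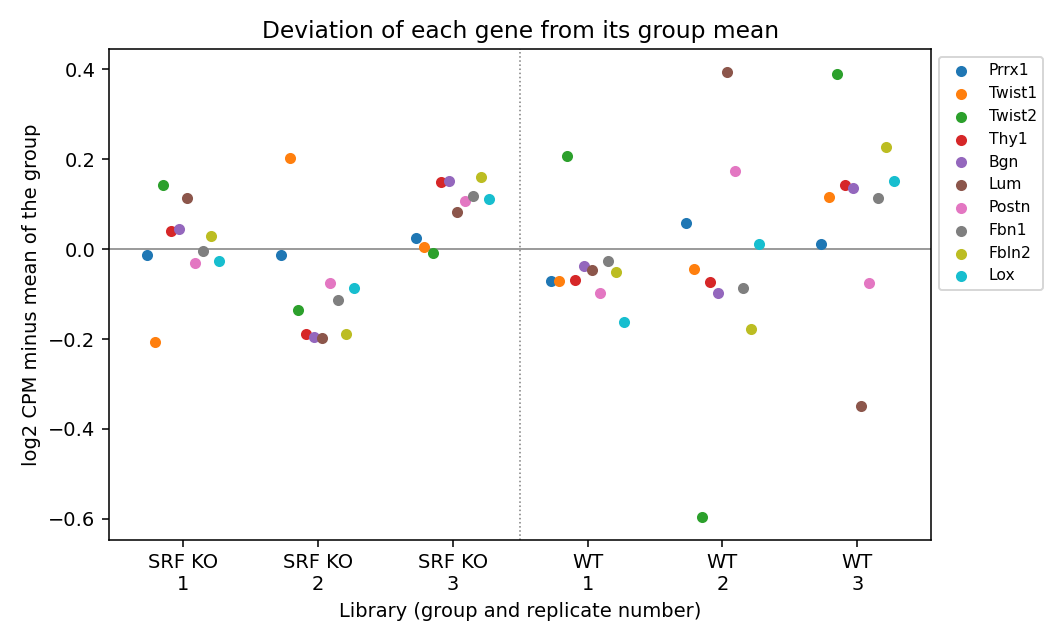
Deviation of log2 CPM of each gene from the mean of its group, by library. In SRF KO replicate 2, 9 of the 10 genes are the lowest of their group; Twist2 in WT replicate 2 lies farthest from 0, at -0.60.

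The wider set of genes around these 10 was taken from 9 lists with 103 genes in the table. The lists were chosen with earlier results of these data known, so their shares are a description only. SRF KO exceeded WT in 75 of the 94 genes tested and was below it in 6 (79.8% and 6.38%, beside 21.2% and 21.3% of all genes tested), and 13 did not pass the threshold. Their median log2 fold change was 0.90, and single values in these lists are log2 fold changes past the threshold unless stated. The 6 lower genes were Id2, Id4, Pdpn, Fbln1, Cyr61 and Ctgf. Without WT replicate 2, 76 were higher and 8 lower.

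Among other transcription factors of mesenchyme, 13 of 15 tested were higher and 0 lower, with a median of 0.97. Runx1, a factor of blood and mesenchyme, had a log2 change of 2.36 (SE 0.10, adjusted p 7.53e-09 in edgeR), beyond any of the 10 genes. Zeb2, a repressor active in epithelial-mesenchymal transition, had 0.97. Meox1 (0.01) and Osr2 (-0.25) did not pass the threshold, and Tcf21 and Meox2 had too few counts to be tested. Twist factors pair with E proteins and are held back by Id proteins, and in this list 2 of 8 were higher and 2 lower (25% each way, near the 21.2% and 21.3% of all genes tested), with a median of -0.04. Id1 had 1.64 and Id2 -1.07. Of the E proteins, Tcf3 (-0.15) and Tcf4 (0.00) did not pass the threshold. The third, Tcf12, passed it at 0.20 (adjusted p 0.0101 in edgeR), but not without SRF KO replicate 1 (adjusted p 0.0639), SRF KO replicate 3 (0.0552) or WT replicate 1 (0.0542).

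Of 13 surface proteins and other markers of fibroblasts, 11 were higher and 1 lower, with a median of 1.04. The collagen receptor gene Ddr2 had a log2 fold change of 1.45 and Cd44, which encodes a hyaluronan receptor, 1.38. Podoplanin, from Pdpn, was lower, at -0.28. Fap, which encodes fibroblast activation protein, had 0.68 and did not pass the threshold (adjusted p 0.148 in edgeR).

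Of the matrix proteoglycans listed beside Bgn and Lum, 7 of 7 tested were higher (median 1.08), with Dcn (decorin) at 1.18 and Prelp at 1.26. The other 5, Omd, Ecm2, Kera, Epyc and Chad, had too few counts to be tested. Among those tested, Fmod had 7 to 14 counts in WT and entered the test through SRF KO alone. Partners of Fbn1 and Fbln2 in microfibrils and elastic fibres were higher in 11 of 15 cases and lower in 1, with a median of 0.65. Fbln5, needed to assemble elastic fibres, had 1.69 and Ltbp2, which encodes a relative of the fibrillins, 1.33. Fbln1, the fibulin next of kin to Fbln2, was lower at -0.38, and elastin (Eln) had -0.14 and did not pass the threshold. Among enzymes that cross-link or process collagen, as Lox does, 11 of 12 were higher and 0 lower (median 0.72). Tll1, a procollagen protease, had 1.23 and Loxl2, a relative of Lox, 0.80.

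Matricellular genes, the class of Postn, were mixed, with 4 higher and 2 lower of 8 tested and a median of 0.28. The thrombospondin genes Thbs2 and Thbs1 had 1.25 and 1.09. Cyr61 and Ctgf, which encode secreted proteins of the CCN family, were lower at -0.31 and -0.33. Fibronectin (Fn1) was between 1998 and 2234 CPM in SRF KO and between 1923 and 2023 CPM in WT and did not pass the threshold (0.11, adjusted p 0.127 in edgeR). All 8 matrix proteases and inhibitors were higher (median 0.88), with the metalloprotease inhibitor genes Timp2 at 1.33 and Timp3 at 1.01. All 8 fibroblast collagens were higher too, with a median of 1.05 and a range of 0.84 to 1.22. Col5a2 had 1.22 and Col3a1 1.09, within the range of the 10 genes.

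**Figure D4:**
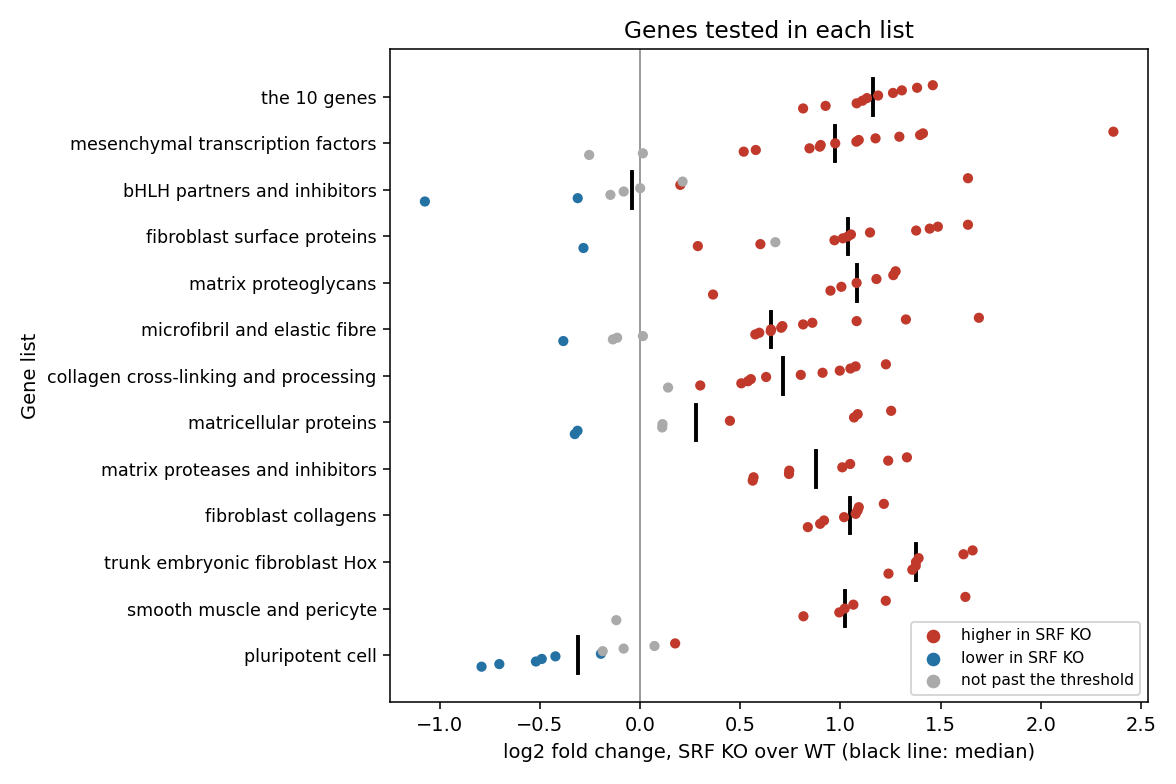
Log2 fold change (SRF KO over WT) of every tested gene, by list; red and blue points passed the threshold, grey points did not, and black lines are medians. The 10 genes, the collagens and the trunk Hox genes lie in narrow bands to the right of 0, whereas the bHLH partners and the pluripotency markers fall on both sides. The lists of mesenchymal factors, surface proteins, microfibrils, matricellular proteins and smooth muscle also hold genes to the left of 0.

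Markers of other cell types moved with these genes. Their counts stand beside 21.2% of all genes tested called higher and 21.3% lower. Of 15 extraembryonic endoderm markers tested, 15 were higher, with a summed level over the 16 listed of 3165 to 3373 CPM in SRF KO and 427 to 454 CPM in WT. The median was 3.62, above each of the 10 genes. In WT, Ttr had 0 counts in all 3 libraries. Ttr, Hnf4a (2 to 5 counts in WT) and Foxa2 (5 to 17) entered the test through SRF KO alone, so that the filter favoured a rise in them. The 7 Hox genes typical of trunk embryonic fibroblasts were all higher, with log2 fold changes of 1.24 to 1.66. Their summed level was 13.5 to 15.2 CPM in SRF KO and 5.01 to 5.77 CPM in WT, with no gene at 0 throughout. Hoxc9, Hoxa9 and Hoxb6, at 2 to 15 counts in the WT libraries, entered the test through SRF KO alone, so that the filter favoured a rise in them. Smooth muscle and pericyte markers, several of them known SRF targets, were higher in 6 of 7 cases, at 322 to 369 CPM summed against 164 to 181, with a median of 1.02. Rgs5, at 4 to 8 counts in WT, also entered the test through SRF KO alone. The part of these cell type markers in the levels of the 10 genes was not tested.

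The remaining marker lists differed from each other. Their counts, too, stand beside 21.2% of all genes tested called higher and 21.3% lower. Of 5 blood and macrophage markers, 2 were higher and 0 lower, and their sum was 104 to 117 CPM in SRF KO and 75.1 to 87.8 CPM in WT (median 0.47). Of 5 endothelial markers tested, 3 were higher and 2 lower, with sums of 48.2 to 51.7 CPM in SRF KO and 66.0 to 73.0 CPM in WT. Their median was 1.12. Pecam1, the most abundant, fell from 55.6 to 29.4 CPM, while Cdh5 had a log2 fold change of 4.56, Kdr 1.49 and Esam 1.12. Cdh5 had 5 to 7 counts in WT and entered the test through SRF KO alone. The 4 keratinocyte markers summed to under 1 CPM in every library, and none had enough counts to be tested. Of the 10 pluripotency markers, 6 were lower and 1 higher, with a median of -0.31 and sums of 5450 to 5563 CPM in SRF KO and 6763 to 7220 CPM in WT.

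The genes in none of the lists whose profile over the 6 libraries was nearest to the mean profile of the 10 genes were Tgfbr3, Cpe, Cped1, Fzd1 and S1pr3. Nearness was the Euclidean distance between centred log2 CPM values over the 6 libraries, among 12210 genes with a mean of at least 50 counts. It was 0.0513 for Tgfbr3, which encodes a co-receptor of TGF-beta, and between 0.110 and 0.112 for the others. The 10 genes themselves were between 0.142 (Bgn) and 0.831 (Twist2) from their own mean. Tgfbr3 was at 20.3, 18.5 and 22.1 CPM in SRF KO and at 8.67, 8.67 and 9.69 CPM in WT. Its log2 fold change was 1.17, and those of Cpe, Cped1, Fzd1 and S1pr3 were 1.12, 1.14, 1.23 and 1.15, each fixed closely by the choice.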

How the data were processed

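Bulk RNA of iPSCs, in 3 SRF KO and 3 WT libraries, was sequenced as paired reads. Reads that were empty, of low quality or adaptor were dropped, per the labels' protocols. The authors deposited whole-number counts per gene and per transposable element subfamily, without normalization, judged from the values. The build mm10 and DESeq2 are named per the submitters' processing notes, without a role. The aligner, counter, annotation and use of strand are not given in the sources used here. Columns were matched to samples by title.

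A single fit took in all 25567 entries, in R 4.3.3 with edgeR 4.0.16 (filterByExpr with a minimum count of 10, TMM scaling, quasi-likelihood test, Benjamini-Hochberg adjustment over the 15611 entries tested, threshold 0.05). A log2 fold change is positive where SRF KO exceeds WT, and the SE is the fold change divided by the square root of F. Exon lengths and positions are from GENCODE M21 (GRCm38), with lengths for 14215 of the 14778 genes tested. DESeq2 1.42.0 was an alternative. A count of 0 allows up to 3 counts, or 0.0828 to 0.117 CPM. Such limits cover counting error only. Pairs of replicates differed beyond sampling noise, with a chi-square per degree of freedom of 1.79 to 14.6. The code was tested on simulated data.

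The 10 genes and all lists were chosen with earlier results of these data known. Named are the 10 genes, Srf, in each other list up to 2 rises and 1 fall with the smallest adjusted p, and the 5 genes nearest in profile. Other genes were named after their values were seen. These were genes that did not pass the threshold or were not tested, and the lower genes Id4 and Ctgf. They also include Fmod and the markers Pou5f1, Nanog, Ttr, Hnf4a, Foxa2, Hoxc9, Hoxa9, Hoxb6, Rgs5, Pecam1, Cdh5, Kdr and Esam.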

Additional observations from a re-analysis of the deposited data

How the results depend on the processing

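All 10 genes kept their direction and an adjusted p under 0.05 with RLE size factors, under DESeq2, without a filter, with gene entries alone and without any 1 library, with medians of 1.11 (without SRF KO replicate 3) to 1.23 (without SRF KO replicate 2). At an adjusted p under 0.01 all 10 were called, and at a log2 fold change of 1 or more in size all but Twist1 and Postn. That last threshold, which lowers counts by construction, left 1077 genes called (817 higher, 260 lower) and, in the 9 other lists, 40 (39 higher, 1 lower). At 0.01, 2199 of the 14778 genes tested were higher and 2013 lower. Of 364 comparisons of the 28 other named genes, 354 kept their side of the threshold and 10 lost the call, among them Tcf12 without 3 of the libraries. Without 1 library, between 4731 (SRF KO replicate 1) and 7461 (WT replicate 2) genes were called.

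Whether the numbers of the replicates mark pairs could not be settled. Same-numbered deviations correlated at 0.0411, 0.353 and 0.214 over 12919 entries. SRF KO replicates 2 and 3 correlated best with the WT replicates of the same number, whereas SRF KO replicate 1 correlated best with WT replicate 3 (0.253). Deviations from the mean of a group are tied to each other, so these correlations cannot decide it. With the replicate block, 7512 genes were called (3659 higher), beside 6273 without it, and again all 10 of the genes described. Depth limits Lum, Twist1 and Twist2 most.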
